A study of Mus musculus with 8 samples.

Results

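A group of 10 genes that cells switch on in response to cyclic AMP (cAMP), most of which limit that response, was examined. The material was cultures that the study names bone marrow mesenchymal stem cells (MSCs), with and without conditional deletion of the m6A methyltransferase Mettl3. The genes are the phosphodiesterases Pde4a, Pde4b, Pde4d, Pde7b and Pde10a and the transcription factors Crem and Nfil3. The others are the G protein regulator Rgs2, the kinase Sik1 and the coregulator Cited2. The 10 genes were chosen by name, with earlier results of these data known, from the 47643 named entries of the expression table. Each had 1 entry and passed the filter on low counts that left 15327 genes. RNA-seq compared 2 libraries of MSCs from Mettl3fl/fl mice (WT) with 2 from Prx1-Cre;Mettl3fl/fl mice (cKO), all labelled C57BL/6, with a floxed allele made on C57BL6/J by the study's methods. The cells were flushed from tibiae and femurs and kept for 2 days in osteogenic medium, in which dexamethasone was at 100 nM, ascorbic acid at 50 µg/ml and β-glycerophosphate at 5 mM, without added parathyroid hormone as far as the sources used here state. Both groups carry the floxed allele, and Prx1-Cre, a transgene active in limb mesenchyme, removes 2 early exons of Mettl3 in the cKO cells only. In WT MSCs under the same medium, MeRIP-Seq, in which an antibody recovers RNA fragments carrying N6-methyladenosine (m6A), gave 1 list of 10160 peaks from 2 immunoprecipitates and 2 inputs. The sources used here do not state the animals or ages behind a library, so the p-values measure the spread between libraries, which may be technical.

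cAMP is made by adenylyl cyclases when a Gs-coupled receptor, such as that of parathyroid hormone, is occupied, and it releases the catalytic subunits of protein kinase A (PKA). PKA phosphorylates CREB, which binds cAMP response elements in promoters and turns on a first wave of genes within the hour. Several of these genes act back on the pathway: phosphodiesterases destroy cAMP, short products of Crem repress CREB sites, RGS proteins shorten G protein signals, and Sik1 keeps the CREB coactivators out of the nucleus.

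The libraries held 23978099 to 34106693 counts. A level is given below as CPM, the count scaled by TMM to a library of 1000000. TPM, used where genes of different length are compared, is the authors' own value per transcript length. It sums to 1000000 per library and is not TMM-scaled. Mettl3 itself had 17.6 and 16.9 CPM in WT and 17.5 and 16.3 CPM in cKO, a log2 fold change of −0.03 (SE 0.09, edgeR adjusted p 0.824). The count covers the whole gene, including the exons that are not deleted, so it does not check the genotypes, which below are those of the labels. The 2 cKO libraries were much closer to each other (biological coefficient of variation 1.90%) than the 2 WT libraries (12.4%). Markers of other cell types moved with the groups, beside 16.8% of all genes tested called lower and 13.7% higher by edgeR. The 6 cartilage markers summed to 3573 and 3610.5 CPM in WT and 84.8 and 84.2 CPM in cKO, with 5 of the 6 lower, and Col2a1 alone had 2405 and 2195 CPM against 47.9 and 51.5 CPM. The osteoblast list summed to 2195 and 2298 CPM against 1396 and 1434 CPM (6 of 6 lower), and the adipocyte list to 612 and 629 CPM against 1091 and 1114 CPM (6 of 6 higher). Macrophage markers were abundant in all libraries, at 16623 and 21085 CPM in WT and 22138 and 22254 CPM in cKO, with 1 of 8 called higher. Of 10 markers of MSCs and stroma, 5 were lower and 4 higher, among them Thy1, with 3.93 and 1.91 CPM in WT and 74.7 and 69.4 CPM in cKO. Lepr was near the floor, at 1.09 and 1.24 CPM against 0.825 and 0.596 CPM. Other stromal markers were abundant in both groups. Cxcl12 had 347 and 250 CPM in WT and 189 and 191 CPM in cKO, and Prrx1 had 146 and 134 CPM against 288 and 289 CPM. Endothelial markers summed to 11.03 and 9.66 CPM in WT and 26.4 and 24.0 CPM in cKO (3 of 4 tested higher). They did not move together. Cdh5, with 14 and 11 counts in WT and 4 and 6 in cKO, did not pass. Pecam1 (9 and 7 against 4 and 5 counts) and Tek (7 and 2 against 15 and 9 counts) were too low to be tested. Neutrophil markers summed to 3.14 and 4.28 CPM in WT and 1.11 and 0.910 CPM in cKO (1 of 2 tested lower). The part of these cells in the differences below was not tested, and in such bulk RNA fewer cells of a type and less RNA per cell cannot be told apart.

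Of the 10 genes, 6 were lower in cKO and 1 was higher at an adjusted p under 0.05 (edgeR quasi-likelihood test, Benjamini-Hochberg over all genes tested), where 30.5% of all genes tested were called, 16.8% as lower and 13.7% as higher. Pde4d, Nfil3, Pde4b, Rgs2, Crem and Sik1 fell, in that order of size, Cited2 rose, and Pde7b, Pde10a and Pde4a did not pass. The median log2 fold change of the 10 was −1.49 against −0.0038 for all genes tested. Both cKO libraries were below both WT libraries for 9 of the 10 genes, as for 35.0% of all genes tested, and above them for Cited2, as for 33.9%. The 10 were chosen with earlier results of these data known. Their contrasts with all genes are therefore descriptions and no independent support. An exact permutation test of 2 libraries against 2 cannot give a two-sided p below 0.333, so the calls rest on the spread that edgeR shares across genes.

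**Figure D1:**
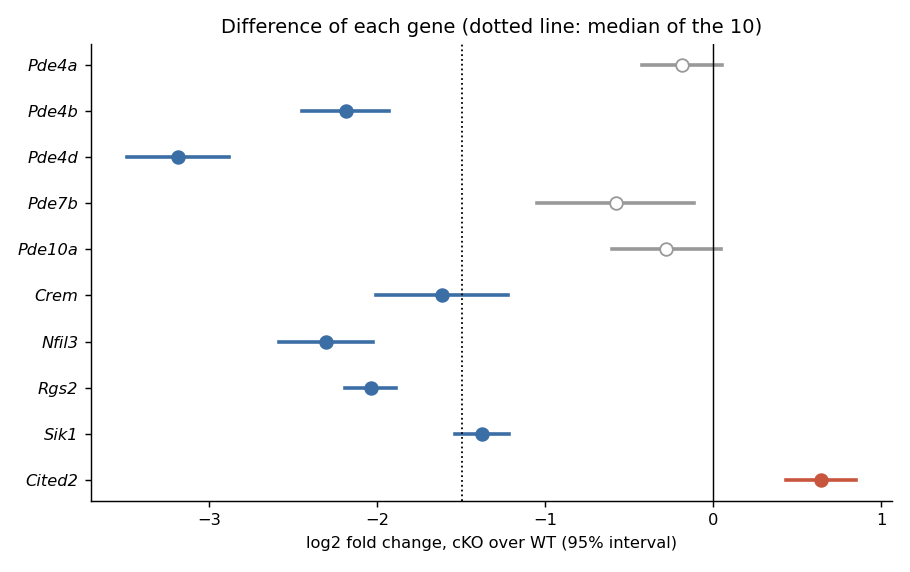
The log2 fold change of each gene, cKO over WT, is a point with its 95% interval from edgeR. Filled blue points were called lower, the filled red point higher, and open grey points did not pass. Pde4d lies farthest to the left at −3.18 and Cited2 is on the right at 0.64, while the intervals of Pde4a and Pde10a cross 0.

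Per length, the order of the 10 in WT by mean TPM was Rgs2 (111), Cited2 (105), Nfil3 (76.3), Crem (74.1), Sik1 (38.5), Pde4d (15.1), Pde4b (10.4), Pde4a (8.03), Pde10a (3.09) and Pde7b (2.72). The libraries of Rgs2 and Cited2, of Nfil3 and Crem and of Pde10a and Pde7b overlapped, so these neighbours did not differ beyond their spread. In cKO the order was Cited2 (176), Rgs2 (27.2), Crem (24.0), Nfil3 (16.6), Sik1 (15.9), Pde4a (7.37), Pde10a (2.62), Pde4b (2.57), Pde7b (2.02) and Pde4d (1.92), where Pde10a overlapped with Pde4b and Pde7b with Pde4d. Pde4d thus went from the sixth place to the last, and Cited2 stood far above the rest.

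The 10 mRNAs were then placed on the m6A peak list by the summit of each peak. The list held 10 peaks on 8 of the genes, and none on Pde7b or Pde10a. Among all tested genes with a gene model on mm9, the build of the list, 40.3% had a peak, and 48.3% of those at least as abundant as the least abundant of the 10 (5.546 CPM). Of the 10 summits, 9 were in coding sequence and 1, that of Crem, was in the 3′UTR, against 61.0% and 25.7% of all peaks in genes. The letters GGAC, the core of the m6A consensus, occurred in all 10 peaks, as in 86.9% of all peaks in genes. Along the mRNA, 6 of the 10 summits lay within 200 nt of the last coding base, as did 30.2% of the peaks on coding transcripts. The list has no replicates and the depth behind it is unknown, so these are counts without error.

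**Figure D2:**
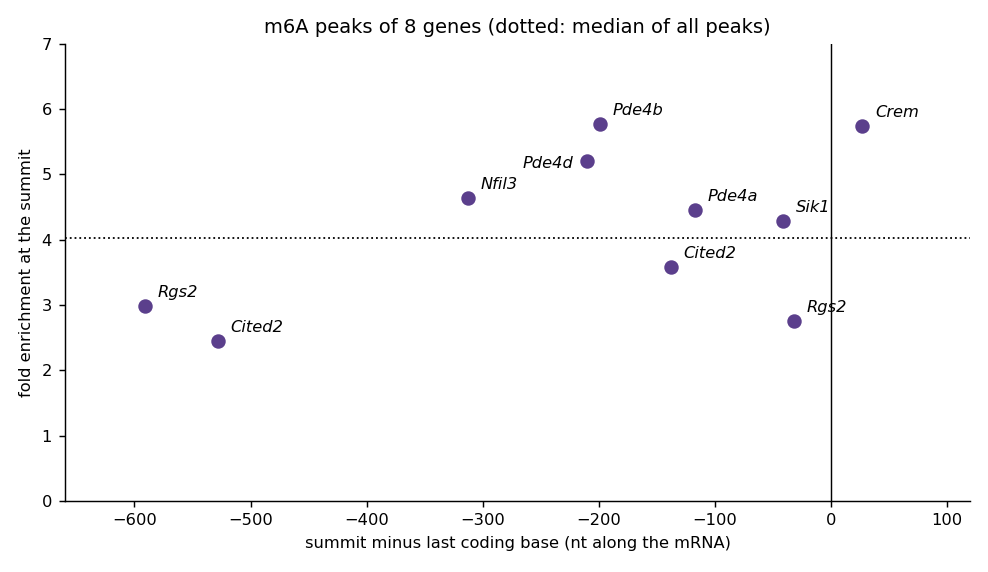
Each point is 1 m6A peak, placed by the distance in nucleotides from the last coding base to its summit along the mRNA (negative values lie in coding sequence) and by its fold enrichment, the authors' value. The dotted line is the median of all peaks, 4.03. Crem, at 27 nt, is the only summit past the stop codon, and Pde4b has the highest enrichment, 5.77.

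The windows shown are the 30 bases around the GGAC nearest to the summit, in capitals, since that tetramer is the core of the consensus. They are written 5′ to 3′ on the mRNA strand, from mm9, and all lie within 1 coding exon. The 3 Pde4 paralogs come first. Their summits, all in the last exon, were 117 nt (Pde4a), 199 nt (Pde4b) and 210 nt (Pde4d) before the last coding base, and the windows are at chr9:21015705-21015734, chr4:102277727-102277756 and chr13:110741297-110741326, all on the plus strand.
Pde4a: tctgcctgctcggGGACatcaggagacaat
Pde4b: atgagaggagcagGGACtgccaaggcctga
Pde4d: ggagggccggcagGGACagactgaaaaatt
The window of Nfil3 is at chr13:53063197-53063226, that of Sik1 at chr17:31983257-31983286 and that of the Rgs2 peak near the stop codon at chr1:145848842-145848871, all on the minus strand. The window of the Cited2 peak nearer the stop codon is at chr10:17444446-17444475 on the plus strand.
Nfil3: aagtggaggctttGGACagcgagtttgaag
Rgs2: ccgaattctaccaGGACttatgtaaaaagc
Sik1: actgtgagatggaGGACctgacctctggcc
Cited2: tagaaatgggtttGGACcgcatcaaggagc
Enrichment at the summit was 4.45-fold for Pde4a, 5.77-fold for Pde4b and 5.21-fold for Pde4d. Cited2, which rose, had 2 peaks, with 2.44-fold and 3.58-fold enrichment, and Rgs2, which fell, also had 2, with 2.75-fold and 2.99-fold. The peaks of Nfil3 (4.65-fold), Sik1 (4.29-fold) and Crem (5.74-fold) were above the median of all peaks. The peak list holds no cKO sample, and whether the peaks bear on the differences was not tested.

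Promoters were read for the letters of the cAMP response element, TGACGTCA, and of its core, TGACG, on both strands. Every full site holds 2 overlapping cores, 1 on each strand. The RefSeq table (GRCm38.p6, 250 bases before to 50 after each start) had 14 promoters of 8 of the genes. It had none for Crem or Sik1. A core was found for 4 of the 8, Rgs2, Nfil3, Pde4b and Pde4a, beside 23.0% of all genes in the table. Counted by promoter, it was in 4 of the 14, beside 20.8% of all promoters. Pde4b and Pde4a each had it in only 1 of several promoters, starting 34 and 50 bases before the start. A full site was found for 0 of the 8, as against 2.03% of all genes. Pde4d, which fell most, had no core in its only promoter read, although the gene has 12 coding transcript models. Pde4a, which did not pass, had a core, and Cited2, Pde7b and Pde10a had none. A match describes letters only, and whether the cores bear on the differences was not tested. The promoters of Rgs2 and Nfil3 are shown because they are the only single-start genes here that hold the core. It is in capitals (CGTCA is TGACG on the other strand). The stretches run from 250 to 46 bases before the start, at chr1:144004195-144004399 and chr13:52981085-52981289, both on the minus strand. The cores of Rgs2 begin at −185 and −67, and that of Nfil3 at −59.
Rgs2: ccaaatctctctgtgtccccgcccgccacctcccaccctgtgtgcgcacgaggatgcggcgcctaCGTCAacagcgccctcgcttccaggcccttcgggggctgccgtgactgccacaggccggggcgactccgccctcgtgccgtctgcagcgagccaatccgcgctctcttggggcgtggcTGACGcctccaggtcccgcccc
Nfil3: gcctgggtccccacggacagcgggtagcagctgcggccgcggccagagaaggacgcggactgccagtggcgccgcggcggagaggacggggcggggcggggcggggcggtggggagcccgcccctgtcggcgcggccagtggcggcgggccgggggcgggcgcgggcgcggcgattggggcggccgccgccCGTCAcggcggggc

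The phosphodiesterases of the PDE4 family hydrolyse cAMP and not cGMP, and their 3 genes measured here behaved differently. Pde4d (ENSMUSG00000021699, chromosome 13, 108449948 to 109953461, GRCm38) had 36.9 and 31.6 CPM in WT and 3.92 and 3.64 CPM in cKO, from 1247 and 893 against 95 and 116 counts. All cKO values were far below the WT values, a 9.08-fold difference (95% interval 7.36 to 11.2), or a log2 fold change of −3.18 (SE 0.13, edgeR adjusted p 2.29e-05). It was the largest change among the 10, and 233 of the 15327 genes tested had a lower log2 fold change. Pde4b (ENSMUSG00000028525, chromosome 4, 102087543 to 102607259) had 26.4 and 26.3 CPM in WT, with hardly any spread, and 6.19 and 5.40 CPM in cKO. It was 4.56-fold higher in WT (3.80 to 5.46), with a log2 fold change of −2.19 (SE 0.11, edgeR adjusted p 5.50e-05). Pde4a (ENSMUSG00000032177, chromosome 9, 21165714 to 21213248) had 21.8 and 24.5 CPM in WT and 21.1 and 19.6 CPM in cKO. Its log2 fold change was −0.18 with a 95% interval from −0.42 to 0.05 (edgeR adjusted p 0.206). The interval leaves out a change of the size seen for Pde4b or Pde4d. Pde4c had at most 4 counts in any library and was not tested.

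Set against each other per length, the 3 PDE4 genes changed their order between the groups. In WT, Pde4d was the most abundant (15.6 and 14.6 TPM), followed by Pde4b (10.7 and 10.2 TPM) and Pde4a (8.06 and 8.0 TPM). In cKO, Pde4a was the most abundant (7.55 and 7.19 TPM), and Pde4b (2.76 and 2.38 TPM) and Pde4d (2.04 and 1.80 TPM) were below it. Pde4a thus made up 23.5% and 24.4% of the PDE4 TPM in WT and 61.1% and 63.2% in cKO, while Pde4d went from 45.4% and 44.6% to 16.5% and 15.8%. The ratio of Pde4d to Pde4a was 1.94 and 1.83 in WT and 0.270 and 0.250 in cKO. These ratios do not overlap between the groups, and with 2 libraries each the difference of the ratios cannot reach significance by an exact permutation test.

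Pde7b and Pde10a, a cAMP-specific enzyme and one that cleaves cAMP and cGMP, were the least abundant of the 10 per length in WT. Pde7b (ENSMUSG00000019990, chromosome 10, 20398004 to 20725078) had 7.69 and 5.59 CPM in WT and 4.42 and 4.49 CPM in cKO. Its log2 fold change of −0.58 (95% interval −1.05 to −0.12, edgeR adjusted p 0.0651) narrowly missed the threshold, and the 2 WT libraries differed from each other by more than the lower one did from cKO. It passed with the replicate number as a block (adjusted p 0.0496), without the filter on low counts (0.00609) and without WT replicate 2 (5.05e-07, log2 fold change −0.79). It did not pass in the other 9 alternatives, among them leaving out WT replicate 1 (adjusted p 0.0990, log2 fold change −0.32), DESeq2 (0.116) and limma on log2(TPM + 0.1) and log2(TPM + 1) (0.336 and 0.303, log2 fold changes −0.38 and −0.28). Pde10a (ENSMUSG00000023868, chromosome 17, 8525372 to 8986648) had 6.48 and 6.90 CPM in WT and 5.53 and 5.49 CPM in cKO, with a log2 fold change of −0.28 (95% interval −0.60 to 0.05, edgeR adjusted p 0.171). The values do not overlap between the groups, but the interval holds 0.

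**Figure D3:**
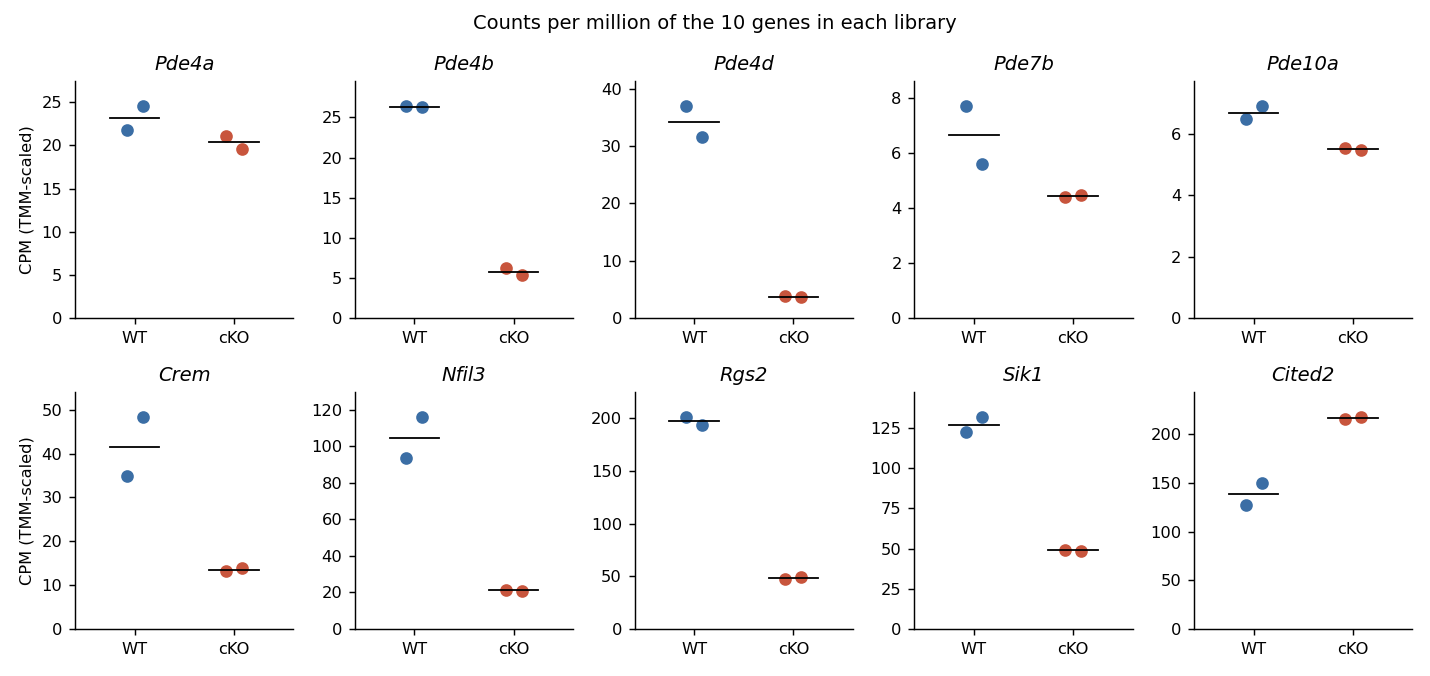
Each panel shows 1 gene, with the TMM-scaled CPM of every library as points (WT blue, cKO red), the group mean as a line and an axis that starts at 0. Pde4d, Nfil3, Pde4b and Rgs2 are 9.08-fold to 4.11-fold lower in cKO, Cited2 is the only gene above WT, and the paired cKO points nearly coincide.

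Summed over all 25 phosphodiesterase genes of the table, the TPM hardly differed, at 162 and 165 in WT and 158 and 156 in cKO. This sum is no measure of mRNA for cAMP breakdown, since it includes genes whose products do not mainly cleave cAMP. Pde6d alone made up 26.1% and 30.8% of it in WT and 29.2% and 29.9% in cKO. Within this total, Pde4a, Pde4b and Pde4d together gave 34.4 and 32.8 TPM in WT and 12.4 and 11.4 TPM in cKO, or 21.2% and 19.9% against 7.83% and 7.28%. Of the other 20 phosphodiesterase genes, 13 were tested, of which 1 was lower, 3 were higher and 9 did not pass. Their median log2 fold change was 0.04, and 30.5% of all genes tested were called in either direction. The most abundant by CPM, Pde8a, another cAMP-specific enzyme, had 45.5 and 44.6 CPM in WT and 46.4 and 46.2 CPM in cKO (log2 fold change 0.04, edgeR adjusted p 0.700). Pde5a, which cleaves cGMP, rose from 6.66 and 5.17 CPM to 26.5 and 26.7 CPM (log2 fold change 2.16, SE 0.13, edgeR adjusted p 0.000131), the largest change in this family list. The most abundant per length was Pde6d at 42.4 and 50.9 TPM in WT and 46.1 and 46.8 TPM in cKO, whose product is better known as a carrier of prenylated proteins than as part of an enzyme.

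**Figure D4:**
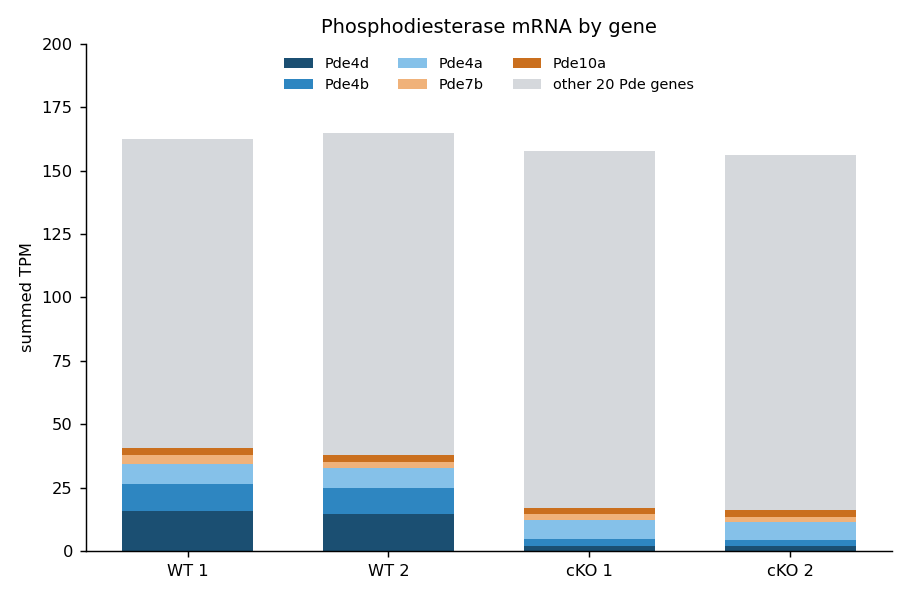
Stacked bars give the TPM of the 5 phosphodiesterases studied and, in grey, of the other 20 Pde genes in each library, on an axis that starts at 0. The bars are of nearly equal height (156 to 165 TPM), while the dark blue Pde4d and mid blue Pde4b segments shrink in both cKO libraries and the light blue Pde4a segment does not.

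Crem encodes activators and repressors of the CREB family, among them the short inducible repressor ICER, which starts inside the gene. Crem (ENSMUSG00000063889, chromosome 18, 3266048 to 3337748, GRCm38) had 34.8 and 48.3 CPM in WT and 13.2 and 13.9 CPM in cKO. WT replicate 2 was 1.39 times WT replicate 1, the widest such ratio among the called genes of the 10, and both were well above cKO. The difference was 3.06-fold (95% interval 2.33 to 4.02), with a log2 fold change of −1.61 (SE 0.16, edgeR adjusted p 0.000963). In TPM, Crem had 63.7 and 84.5 in WT and 23.4 and 24.6 in cKO, which rests on the lengths of the isoforms that reads were assigned to, and the gene has 36 coding transcript models. The table gives 1 value for the gene, so ICER and the longer forms could not be told apart. Crem overlaps Gm6225, a noncoding gene on the opposite strand with 26 and 32 counts in WT and 9 and 8 in cKO, against 319 to 1365 for Crem, and whether the counting used strand is not stated.

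Creb1, Atf1 and the coactivators and phosphatases that work on the same sites formed a list of 10 genes. Of these edgeR called 0 lower (1 at an unadjusted p under 0.05, 0 by DESeq2 and by limma) and 4 higher (3 by DESeq2, 1 by each limma fit), beside the 30.5% called over all genes tested, and 6 did not pass, with a median log2 fold change of 0.19. Creb1 itself had 39.3 and 40.8 CPM in WT and 49.8 and 48.6 CPM in cKO (log2 fold change 0.30, edgeR adjusted p 0.0191). The TPM ratio of Crem to Creb1 was 3.72 and 4.92 in WT and 1.11 and 1.20 in cKO. The list's most abundant gene, the phosphatase Ppp1ca, which can remove phosphate from CREB, had 303 and 315 CPM in WT and 266 and 281 CPM in cKO (log2 fold change −0.17, edgeR adjusted p 0.0795). Its largest called change was that of the acetyltransferase Ep300, 120 and 129 CPM against 171 and 176 CPM (log2 fold change 0.47, SE 0.06, edgeR adjusted p 0.00303).

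Nfil3 (E4BP4) is a bZIP repressor that is induced by cAMP, glucocorticoids and cytokines and competes with the PAR bZIP activators for their sites. It lies on chromosome 13 (ENSMUSG00000056749, 52967209 to 52981073, GRCm38) and had 93.3 and 116 CPM in WT and 21.5 and 20.8 CPM in cKO. The groups were far apart although the WT libraries differed by a factor of 1.24. It was 4.94-fold higher in WT (95% interval 4.08 to 6.00), with a log2 fold change of −2.31 (SE 0.12, edgeR adjusted p 5.89e-05). Of the 3 PAR bZIP genes, Tef had 88.6 and 77.6 CPM in WT and 112 and 116 CPM in cKO (log2 fold change 0.45, edgeR adjusted p 0.00758). Dbp had 10.0 and 6.76 CPM against 13.5 and 14.9 CPM (log2 fold change 0.75, edgeR adjusted p 0.0267). Both rose by edgeR and DESeq2, but 0 of them passed under limma at a pseudocount of 0.1 and 1 at a pseudocount of 1, and Hlf, at 0.414 to 0.722 CPM, did not pass.

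Rgs2 speeds up GTP hydrolysis on G protein alpha subunits, above all of the Gq class, and also holds back adenylyl cyclase. Per length it had 113 and 109 TPM in WT, a range that overlapped that of Cited2, and 26.1 and 28.2 TPM in cKO, below Cited2. Rgs2 (ENSMUSG00000026360, chromosome 1, 143999338 to 144004161, GRCm38) had 201 and 194 CPM in WT and 47.1 and 49.0 CPM in cKO. Both pairs of replicates were tight, and the difference was 4.11-fold (95% interval 3.70 to 4.56), with a log2 fold change of −2.04 (SE 0.06, edgeR adjusted p 1.08e-05), the smallest adjusted p of the 10. Of 18 other RGS genes, 13 were tested, of which 3 were lower, 5 higher and 5 did not pass. Their median log2 fold change was 0.00, and 16.8% of all genes tested were called lower and 13.7% higher. The most abundant by CPM, Rgs10, had 58.1 and 65.5 CPM in WT and 78.1 and 74.5 CPM in cKO (log2 fold change 0.30, edgeR adjusted p 0.0296). Rgs8 changed most in this list but had only 38 and 26 counts in WT and 1 and 1 in cKO. The TPM ratio of Rgs2 to Rgs3, another member that binds Gq, was 2.63 and 3.07 in WT and 0.529 and 0.576 in cKO.

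Sik1 is the salt-inducible kinase whose mRNA responds to cAMP, and PKA in turn inhibits the kinase. It had 123 and 132 CPM in WT and 49.3 and 48.8 CPM in cKO (ENSMUSG00000024042, chromosome 17, 31844248 to 31855792, GRCm38). The groups did not overlap, and the difference was 2.59-fold (95% interval 2.32 to 2.90), with a log2 fold change of −1.38 (SE 0.07, edgeR adjusted p 4.90e-05). Its paralogs Sik2 and Sik3 did not pass. Sik2 had 40.0 and 39.7 CPM in WT and 36.4 and 35.8 CPM in cKO (log2 fold change −0.14, 95% interval −0.31 to 0.02), and Sik3 had 72.4 and 86.0 CPM against 79.3 and 75.6 CPM (log2 fold change −0.03, 95% interval −0.26 to 0.19). Per length, Sik1 was above both paralogs in WT, at 37.4 and 39.6 TPM against 31.0 and 26.5 TPM for Sik2 and 23.1 and 29.4 TPM for Sik3. In cKO it was below both, at 16.0 and 15.8 TPM against 32.3 and 28.0 TPM for Sik2 and 25.9 and 25.7 TPM for Sik3. With the upstream kinase Stk11 and the HDAC and MEF2 genes downstream, this list of 10 had 0 called lower by edgeR (1 at an unadjusted p under 0.05, 0 by DESeq2 and by limma), 4 higher (4 by DESeq2, 2 and 4 by limma at a pseudocount of 0.1 and 1) and 6 that did not pass, and a median log2 fold change of 0.10. By edgeR, 16.8% of all genes tested were called lower and 13.7% higher. The list's most abundant gene, Mef2a, had 353 and 300.1 CPM in WT and 353 and 357 CPM in cKO. The largest called change was that of Hdac9, a class IIa deacetylase, from 6.66 and 6.40 CPM to 11.5 and 11.1 CPM (log2 fold change 0.79, edgeR adjusted p 0.00386).

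Cited2 was the 1 gene of the 10 that rose. Its product binds the coactivators CBP and p300 and displaces the hypoxia factor Hif1a from them. Cited2 (ENSMUSG00000039910, chromosome 10, 17723228 to 17725673, GRCm38) had 128 and 150.1 CPM in WT and 216 and 218 CPM in cKO. Every cKO value was above every WT value, a 1.56-fold rise (95% interval 1.35 to 1.80), with a log2 fold change of 0.64 (SE 0.09, edgeR adjusted p 0.00287). Per length it had 97.8 and 112 TPM in WT, overlapping Rgs2, and 175 and 177 TPM in cKO, above the other 9 genes. All 4 tested relatives and partners of Cited2 fell by edgeR and by DESeq2, and 2 of the 4 by each limma fit. By edgeR, 16.8% of all genes tested were called lower. The median log2 fold change of −1.91 lies between small changes of the abundant genes and large changes of the low-count genes. Epas1 had a log2 fold change of −0.50. Cited4 had −3.31, from 77 and 78 counts in WT and 6 and 8 in cKO. Hif1a, the most abundant, had 238 and 319 CPM in WT and 205 and 200 CPM in cKO (log2 fold change −0.46, SE 0.13, edgeR adjusted p 0.0408), and Tfap2a fell from 81 and 96 counts to 4 and 5 (log2 fold change −4.13, edgeR adjusted p 0.000757).

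The genes that make, carry or restrain the cAMP signal moved in both directions, as did all genes tested, with 16.8% called lower and 13.7% higher. Of 20 genes listed as Gs-coupled receptors, 18 were tested, of which 1 was lower, 6 were higher and 11 did not pass, with a median log2 fold change of 0.26. The list was drawn widely and includes Ramp1, a receptor partner, and S1pr2, which acts mainly through other G proteins. The most abundant by CPM, S1pr2, had 47.9 and 42.2 CPM in WT and 62.9 and 63.7 CPM in cKO (log2 fold change 0.49, edgeR adjusted p 0.00607). Gpr3, a receptor that raises cAMP without an added ligand, had 29 and 33 counts in WT and 0 and 4 in cKO. Of 14 tested genes for G protein alpha subunits and adenylyl cyclases, 4 were lower, 4 higher and 6 did not pass, with a median of 0.07. Gnai2, of the Gi class that inhibits adenylyl cyclase, led these at 862 and 850 CPM in WT and 889 and 901 CPM in cKO. Adcy8, with the largest called change, had 18 and 14 counts in WT and 2 and 4 in cKO.

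Among 20 genes for PKA subunits, their inhibitors and anchoring proteins and Epac, 3 were lower, 5 higher and 12 did not pass. The median log2 fold change was 0.10, and 30.5% of all genes tested were called in either direction. Prkar1a, a regulatory subunit and the most abundant of the list, had 435 and 461 CPM in WT and 454 and 457 CPM in cKO (log2 fold change 0.02, edgeR adjusted p 0.800). The anchoring protein Akap12 rose from 146 and 91.2 CPM to 482 and 482 CPM (log2 fold change 2.02, SE 0.20, edgeR adjusted p 0.000953).

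Other known CREB target genes moved the way the 6 genes did. Of 16 listed, 14 were tested, of which edgeR called 12 lower (13 by DESeq2, 10 by each limma fit) and 0 higher (0 also at an unadjusted p under 0.05, by DESeq2 and by limma), and 2 did not pass, with a median log2 fold change of −2.75. Over all genes tested, edgeR called 16.8% lower. This list was drawn up with earlier results of these data known, and is no independent support. Junb, its most abundant gene, had 373 and 427 CPM in WT and 81.8 and 81.5 CPM in cKO (log2 fold change −2.29, SE 0.08, edgeR adjusted p 1.59e-05). Nr4a3, an orphan nuclear receptor, had 152 and 153 CPM in WT and 0.248 and 0.471 CPM in cKO. The feedback genes of growth factor signalling (DUSP, SPRY and SPRED, 8 genes) went both ways, 3 lower and 4 higher. Their median log2 fold change was 0.26, and 30.5% of all genes tested were called in either direction. Dusp1, with 254 and 314 CPM in WT and 89.6 and 95.2 CPM in cKO, was counted among the CREB targets instead. The counts of both lists thus depend on how genes were assigned. Spred1, which restrains Ras signalling, had 104 and 104 CPM in WT and 145 and 149 CPM in cKO (log2 fold change 0.50, edgeR adjusted p 0.00151), and Dusp5, a phosphatase of ERK, had 9.35 and 7.61 CPM against 3.01 and 4.02 CPM (log2 fold change −1.26, edgeR adjusted p 0.00500).

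**Figure D5:**
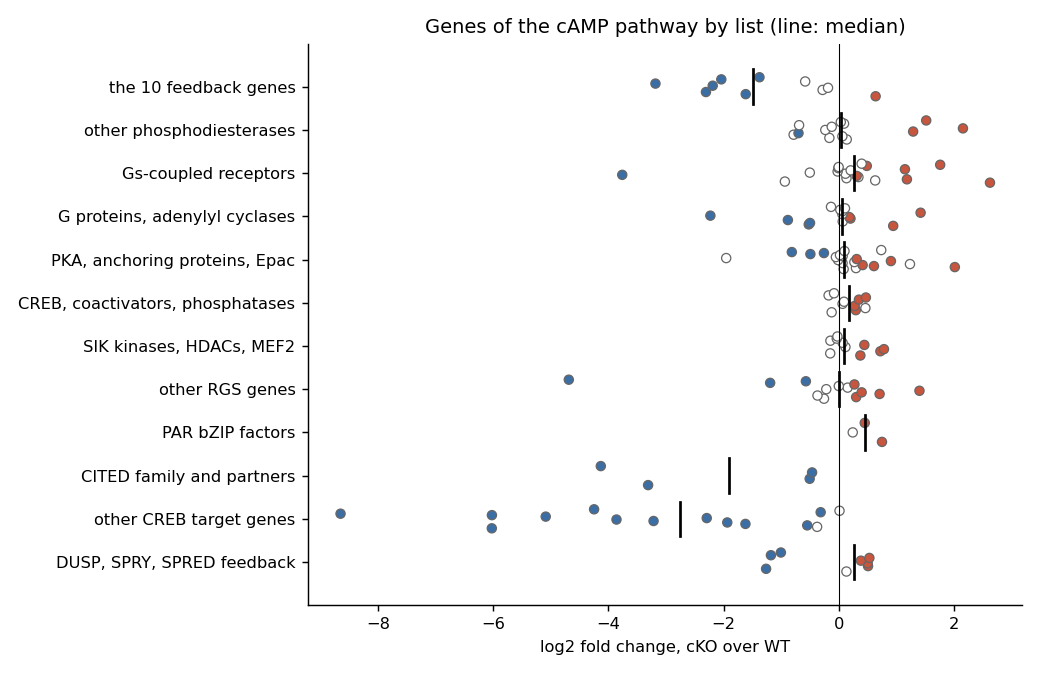
Each point is a tested gene placed by its log2 fold change, cKO over WT, with genes in rows by list. Blue was called lower, red higher and white neither, and the vertical line is the median of the list. The medians of the 10 feedback genes (−1.49), the CITED family and partners (−1.91) and the other CREB targets (−2.75) are left of 0. The 4 points of the CITED list spread from −0.46 to −4.13, and the other lists have medians between 0.00 and 0.45.

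The 3′UTRs of the 10 genes were also searched for ATTTA, the letters of the AU-rich pentamer found in many short-lived mRNAs, in the longest 3′UTR of each gene on mm9. Pde10a had 13 matches, Crem 10, Pde4d and Rgs2 5 each, Pde4b, Pde7b and Sik1 3 each, Pde4a and Cited2 1 each, and Nfil3, with a 3′UTR of 269 nt, 0. The median over 13468 tested genes was 1, and 67.4% had at least 1. The median 3′UTR of those genes was 1152.5 nt. Longer were those of Pde10a (4992 nt), Pde7b (2706 nt), Rgs2 (2342 nt), Pde4d (2117 nt) and Sik1 (2035 nt). So were those of Pde4b (1920 nt), Pde4a (1904 nt) and Crem (1629 nt), while that of Cited2 (918 nt) was shorter. The matches were not set against length, so the counts do not show an enrichment. Whether the matches bear on the differences was not tested.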

How the data were processed

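The authors deposited a table of estimated counts per gene, without normalization, and of values headed FPKM that sum to 1000000 per library and were read as TPM (rescaled per length by the authors). The submitters' processing notes name HISAT2 2.0.4, TopHat and MACS2 and the builds mm10 and mm9. The counter is not given in the sources used here. The deposited peak list gives the pileup signal, the fold enrichment (a ratio), and −log10 p and q-values at each summit, as the authors' peak caller wrote them, and positions (other columns); the p-values were not used. Whether samples were pooled is not stated.

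Counts were rounded, filtered with filterByExpr, TMM-scaled and tested with edgeR 4.0.16 (glmQLFTest, two-sided, no block) in R 4.3.3 over the whole table, with Benjamini-Hochberg adjustment over 15327 genes. Entries without a gene name held 0.110% to 0.125% of a library and were left out. Intervals are 95%. The fit was tested on simulated data. Peaks were placed by summit on mm9 and GENCODE vM1, coding sequence taking precedence over untranslated regions, these over noncoding exons, and introns coming last. Alternatives were the replicate number as a block, median-of-ratios scaling, no filter, DESeq2 1.42.0, limma 3.58.1 on log2(TPM + 0.1) and log2(TPM + 1), each library left out, entries of 1 name summed, and, chosen after seeing the data, the cKO libraries summed to 1 sample, since they differed so little.

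The 10 genes and the lists were chosen with earlier results of these data known. Beside the 10 genes and Mettl3, the text names the most abundant gene by CPM and the called gene with the largest change of each pathway list, the most abundant gene of marker lists, and genes that overlap 1 of the 10. The paralogs and partners Pde4c, Pde6d, Creb1, Atf1, Sik2, Sik3, Stk11, Rgs3, Hlf, Cited4 and Epas1 were added after their values were seen. So were the markers Lepr, Thy1, Prrx1, Cdh5, Pecam1 and Tek, and the genes Dusp1 and Ramp1. The remaining marker lists showed Cxcl12, the most abundant stromal marker, at 347 and 250 CPM in WT and 189 and 191 CPM in cKO, with 5 of 10 stromal markers lower and 4 higher. Of 5 osteoclast markers 2 were tested and both were lower (Ctsk 97.0 and 81.3 against 57.0 and 55.0 CPM). Erythroid markers summed to 0.207 and 0.248 CPM in WT and 0.619 and 0.314 CPM in cKO. The lymphoid list was almost wholly Ptprc, at 191 and 200 CPM in WT and 264 and 260 CPM in cKO.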

Additional observations from a re-analysis of the deposited data

How the results depend on the processing

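Over 12 alternatives, the 6 genes that fell and the 1 that rose kept their direction and passed in each, with 6 or 7 lower and 1 higher throughout. The median log2 fold change of the 10 ranged from −1.62 to −1.34, and leaving out 1 library gave 6 or 7 lower genes. The calls added were Pde7b (with the replicate block, adjusted p 0.0496 and log2 fold change −0.56, without the filter, and without WT replicate 2) and Pde4a without WT replicate 1 (adjusted p 0.00463, log2 fold change −0.26). Over the alternatives the adjusted p of Pde7b ran from 5.05e-07 to 0.336 and that of Pde4a from 0.00463 to 0.708. Without a WT library the spread is estimated from the close cKO pair alone, and the lone WT library is assumed to vary like them. Calls over all genes then rose from 4677 to 8750 (without WT replicate 1) and 7934 (without WT replicate 2), and fell to 1904 and 1867 without a cKO replicate 1 or 2. With the cKO libraries summed they fell to 2012, and under limma at a pseudocount of 0.1 or 1 to 2060 and 2858. The replicate number was not taken as a pairing, because the labels give only a shared number. Deviations of libraries of the same number had a correlation of 0.032 across 15327 genes. The cKO pair differed so little (biological coefficient of variation 1.9%) that this cannot decide whether libraries were paired. The replicate block gave 7 lower genes of the 10 and 4881 calls in all. In some pathway lists limma also made fewer calls. Of the G protein and cyclase genes it called 1 lower and 2 higher (pseudocount 0.1) or 0 and 1 (pseudocount 1), where edgeR had 4 and 4. It called 0 or 2 RGS genes lower in place of 3, and 2 or 4 genes of the Gs-coupled receptor list higher in place of 6 (3 by DESeq2). Limma on TPM shifted the median of all genes to 0.10 and 0.08. The count of 10 m6A peaks was the same under any overlap, a −log10 q of at least 5 and merging. The full site TGACGTCA in place of its core TGACG took the promoter count from 4 genes to 0, because it is the rarer motif. Genes with few counts, such as Gpr3, Adcy8 and Rgs8, are limited by depth.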
